A study of Mus musculus with 4 samples.

Results

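The collagen genes were followed in female mouse epiblast stem cells (EpiSCs), pluripotent cells derived from the E6.5 epiblast. Members were the autosomal entries named Col, digits, a, digits, which gave 42 of the 22686 genes in the table. There were 4 libraries, 1 for each combined genotype, namely Smchd1 +/+ XistdeltaA/+, Smchd1 MD1/MD1 XistdeltaA/+, Smchd1 +/+ Xist1lox/+ and Smchd1 MD1/MD1 Xist1lox/+. Every library carried a mutant Xist allele, so none was wild type for both genes. All came from a cross of C57BL6/J with an F1 of JF1 and C57BL6/J, and an F1 parent passes on a JF1 copy of some autosomal regions and a C57BL6/J copy of others. The labels give no replicate and do not say how many lines or embryos stand behind a library. A difference between 2 libraries therefore has no replicate check. Xist RNA coats the X chromosome that is silenced in female cells, and SmcHD1 helps to keep that chromosome silent.

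Collagens are triple-helical proteins of the extracellular matrix. Fibrillar collagens (types I, II, III, V and XI) assemble into the fibres that fibroblasts and cartilage cells secrete, and type VI forms beaded microfibrils in connective tissue. Type IV is the network of basement membranes, the thin sheets that epithelia such as the epiblast rest on, and type XVIII is a basement membrane proteoglycan. The 42 members fell into 11 fibrillar, 7 basement membrane (with Col7a1, whose protein anchors basement membranes, and Col15a1), 6 type VI, 9 fibril-associated, 3 short-chain and 4 transmembrane genes and 2 others. Fibroblasts are a common feeder layer for pluripotent cells, and the labels do not say whether one was used.

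Allele-assigned reads, which cover a strain variant and so can be given to a parent, summed to between 7301034 and 8008500 a library. Smchd1 was at 27.0 and 20.9 FPKM (fragments per kilobase of transcript, scaled to library size) in the +/+ libraries and at 6.68 and 5.98 in the MD1/MD1 libraries. All 10 epiblast genes checked had a mean FPKM of at least 1, with Pou5f1, Utf1 and Dnmt3b the highest, and their FPKM summed to 1689 in the +/+ XistdeltaA/+ library and to 2169 to 2202 in the others. Sox2 and Dnmt3b, 2 of the 10, were more than 2-fold lower in that library than in MD1/MD1 XistdeltaA/+. Nanog, Otx2 and Zic2 were higher in it than in MD1/MD1 XistdeltaA/+, so the list did not move as one. Values of these genes are given beside the other markers. The MD1/MD1 XistdeltaA/+ and +/+ XistdeltaA/+ libraries stood apart from the Xist1lox/+ pair in markers of other cells, which are given beside the results they move with. In bulk RNA, more cells of a type and more RNA per cell cannot be told apart.

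Upstream sequences are shown for the collagens that were at least 2-fold higher in MD1/MD1 XistdeltaA/+ than in +/+ XistdeltaA/+, since these moved together. Of these 11 genes 10 have an entry in the RefSeq promoter table (GRCm38.p6), and 4 have a single start with no annotated exon in the 250 bases before it. Capitals mark matches on either strand to 3 common promoter motifs, the CCAAT box, the TATAA core and the GGGCGG box.
Col3a1 (chr1:45311288-45311537, + strand): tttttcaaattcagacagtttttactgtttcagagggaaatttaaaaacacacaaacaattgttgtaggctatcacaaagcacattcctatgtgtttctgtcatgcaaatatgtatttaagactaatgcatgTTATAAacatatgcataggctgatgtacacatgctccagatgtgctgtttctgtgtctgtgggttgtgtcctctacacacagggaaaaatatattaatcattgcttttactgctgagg
Col5a1 (chr2:27886175-27886424, + strand): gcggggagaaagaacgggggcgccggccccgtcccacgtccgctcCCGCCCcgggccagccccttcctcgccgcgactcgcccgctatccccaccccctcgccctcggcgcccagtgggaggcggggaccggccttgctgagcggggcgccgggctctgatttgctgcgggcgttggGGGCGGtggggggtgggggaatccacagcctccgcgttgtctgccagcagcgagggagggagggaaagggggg
Col6a3 (chr1:90843972-90844221, - strand): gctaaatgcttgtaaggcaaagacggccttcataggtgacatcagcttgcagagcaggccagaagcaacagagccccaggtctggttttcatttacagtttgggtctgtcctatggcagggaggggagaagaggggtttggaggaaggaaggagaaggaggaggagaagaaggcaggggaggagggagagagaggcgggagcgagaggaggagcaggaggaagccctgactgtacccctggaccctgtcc
Col7a1 (chr9:108953336-108953585, + strand): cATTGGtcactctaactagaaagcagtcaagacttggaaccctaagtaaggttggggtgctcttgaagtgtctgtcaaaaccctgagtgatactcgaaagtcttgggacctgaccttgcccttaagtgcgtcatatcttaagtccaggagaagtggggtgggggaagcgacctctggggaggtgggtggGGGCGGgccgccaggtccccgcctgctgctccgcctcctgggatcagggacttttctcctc
The 4 sequences had no motif in common. Col3a1 held 2 overlapping TATAA matches on opposite strands at 118 and 117 bases before the start, Col5a1 held 2 GGGCGG matches, Col7a1 held 1 CCAAT and 1 GGGCGG match, and Col6a3 held 0 of the 3 motifs. Of all 32851 such windows in the table, 33.8% held CCAAT, 22.8% held TATAA and 32.7% held GGGCGG. A match describes the letters and not a site in use.

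Of the 42 collagens 17 had a mean of at least 1 FPKM over the 4 libraries, and the highest was a basement membrane gene. Col18a1 (mm9, chromosome 10, 76514924 to 76629275) encodes type XVIII collagen, the source of endostatin. With XistdeltaA/+ it stood at 67.9 FPKM in the +/+ and 81.7 in the MD1/MD1 library, and with Xist1lox/+ at 55.6 and 70.8. Values of 4 libraries are given in this order from here on. Its highest library was thus less than 1.5 times its lowest, and on the FPKM scale it lay above every other collagen in each library.

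Fibrillar collagens followed. Col1a1 (chromosome 11, 94797584 to 94813170), the major chain of type I collagen of bone, skin and tendon, was at 9.31, 30.7, 14.2 and 12.7 FPKM. Col1a2 (chromosome 6, 4455697 to 4491543), its partner chain, was at 6.34, 26.7, 11.7 and 11.1. Both chains were highest in MD1/MD1 XistdeltaA/+, lowest in +/+ XistdeltaA/+ and near each other in the Xist1lox/+ pair. Col3a1 (chromosome 1, 45368383 to 45406551), which forms the type III collagen of skin and vessel walls, had the same highest and lowest library with 3.001, 18.9, 6.36 and 7.55 FPKM. Col5a1 (chromosome 2, 27741945 to 27895030), a chain of the type V collagen that starts and limits the width of type I fibrils, was at 3.54, 11.4, 6.23 and 4.62.

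The 2 other fibrillar genes did not have this order. Col5a2 (chromosome 1, 45431176 to 45560127), the partner chain of Col5a1, was at 9.93, 11.4, 15.8 and 10.8 FPKM, with +/+ Xist1lox/+ the highest. Col2a1 (chromosome 15, 97806033 to 97835155), the collagen of cartilage and notochord, was at 6.76, 6.51, 5.20 and 5.10, a narrow range.

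The network chains of basement membranes were moderate in 3 libraries and high in one. Col4a1 (chromosome 8, 11198423 to 11312826) was at 10.02, 21.6, 8.92 and 9.01 FPKM. Col4a2 (chromosome 8, 11312829 to 11449287), which lies head to head with it 2 bases away and encodes the other chain of the same trimer, was at 5.69, 16.0, 6.02 and 4.47. For both, MD1/MD1 XistdeltaA/+ stood apart and the other 3 libraries lay close together, unlike type I collagen, where +/+ XistdeltaA/+ was also below the Xist1lox/+ pair. Col7a1 (chromosome 9, 108855790 to 108886920), type VII collagen of anchoring fibrils, was at 1.32, 4.15, 2.19 and 1.67. The 2 remaining type IV genes on autosomes, Col4a3 and Col4a4, which form the network of the kidney glomerulus, reached at most 0.00563 FPKM and were without allele-assigned reads.

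Of the 6 type VI genes 3 had a mean of at least 1 FPKM. Col6a1 (chromosome 10, 76171537 to 76188789) was at 2.03, 15.03, 5.04 and 5.54 FPKM. Col6a2 (chromosome 10, 76058501 to 76086149) was at 1.85, 9.61, 3.61 and 4.56, and Col6a3 (chromosome 1, 92663435 to 92740548) at 0.909, 9.91, 2.31 and 2.75. These encode the 3 chains of the common type VI trimer, and each was highest in MD1/MD1 XistdeltaA/+ and lowest in +/+ XistdeltaA/+. The alternative chains Col6a4, Col6a5 and Col6a6 stayed at or below 0.0716 FPKM.

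Fibril-associated and short-chain genes were low. Col9a3 (chromosome 2, 180332927 to 180356890) and Col9a2 (chromosome 4, 120712171 to 120727930), chains of the type IX collagen that decorates cartilage fibrils, were at 3.20, 4.24, 2.997 and 3.26 FPKM and at 1.497, 1.51, 1.25 and 1.13. Col16a1 (chromosome 4, 129725084 to 129776521) was at 0.827, 3.44, 1.19 and 1.40, and Col8a1 (chromosome 16, 57624369 to 57754850), a collagen of vessel walls and the cornea, at 0.976, 1.77, 1.22 and 1.04. Type IX genes varied little over the libraries, whereas Col16a1 was highest in MD1/MD1 XistdeltaA/+ and lowest in +/+ XistdeltaA/+.

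The other 25 collagens had a mean under 1 FPKM, from 0.939 for Col5a3 downwards. Above 0.2 FPKM in some library were Col5a3, Col11a1, Col11a2 and Col27a1 of the fibrillar class, Col12a1 and Col22a1 of the fibril-associated class, Col10a1 and Col8a2 of the short-chain class, Col15a1 and Col23a1. The highest of these values was 1.76, for Col5a3 in MD1/MD1 XistdeltaA/+. The remaining 15 (Col24a1, Col4a3, Col4a4, Col6a4, Col6a5, Col6a6, Col9a1, Col14a1, Col19a1, Col20a1, Col13a1, Col17a1, Col25a1, Col26a1 and Col28a1) were under 0.2 FPKM in every library, and Col4a4 and Col19a1 were listed at 0 in all 4.

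**Figure D1:**
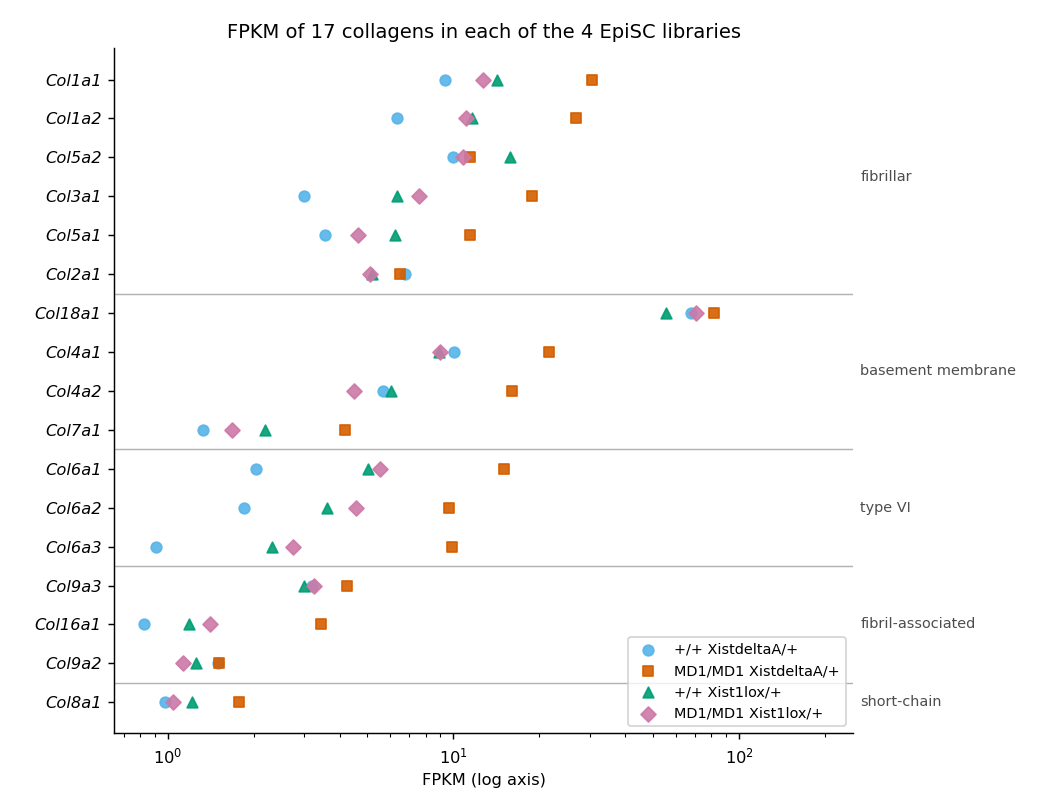
FPKM of the 17 collagens with a mean of at least 1, on a log axis, grouped by class, with 1 point for each of the 4 libraries. MD1/MD1 XistdeltaA/+ (squares) is the highest library for 15 of the 17 genes, and +/+ XistdeltaA/+ (circles) is the lowest for type VI and most fibrillar genes.

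Over the 17 genes, 15 were highest in MD1/MD1 XistdeltaA/+, and 10 were both highest there and lowest in +/+ XistdeltaA/+. Among all 11471 genes with a mean of at least 1 FPKM, 24.6% had the first pattern and 12.2% the second. The exceptions to the first pattern were Col5a2 and Col2a1. Summed over each class, FPKM of fibrillar collagens was 40.9, 110, 61.8 and 53.9, of type VI 4.82, 34.6, 11.04 and 12.9, and of basement membrane collagens 85.4, 124, 72.9 and 86.2. The +/+ XistdeltaA/+ library was thus the lowest for fibrillar and type VI sums and in the middle for basement membrane collagens.

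The first comparison set MD1/MD1 against +/+ with XistdeltaA/+, as the log2 ratio of FPKM + 1, which understates the ratio of low genes. Of the 17 genes 11 were higher in MD1/MD1 by 2-fold or more and 0 lower by as much, where 3.91% of all genes tested were higher and 1.82% lower. With no filter on FPKM, 12 of all 42 collagens were past 2-fold, the added one being Col10a1, against 2.39% of the table; without a filter the Xist1lox/+ pair had 0 of 42, against 0.238%. Type VI genes had ratios of 2.40 for Col6a1, 1.90 for Col6a2 and 2.51 for Col6a3. Fibrillar genes had ratios of 2.31 for Col3a1, 1.92 for Col1a2, 1.62 for Col1a1 and 1.45 for Col5a1, but Col5a2 was at 0.19 and Col2a1 at -0.046. Of basement membrane genes Col4a2 had a ratio of 1.35, Col7a1 of 1.15, Col4a1 of 1.04 and Col18a1 of 0.26. Col16a1 was at 1.28, Col8a1 at 0.49, Col9a3 at 0.32 and Col9a2 at 0.0061. The class medians were 2.40 for type VI, 1.53 for the 6 fibrillar, 1.09 for the 4 basement membrane and 0.32 for the 3 fibril-associated genes, beside -0.048 for all genes tested. The fibrillar median was 0.76 over the 10 genes with a mean of at least 0.1 FPKM.

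Allele-assigned reads come from the same libraries, so their ratios are not an independent check on those of FPKM. In RPM (reads scaled to the library's total of allele-assigned reads), Col6a3 had a log2 ratio of 3.35, Col3a1 of 2.69, Col1a2 of 2.07, Col1a1 of 1.68, Col4a2 of 1.72, Col4a1 of 1.21 and Col18a1 of 0.23. These ratios had the same sign as by FPKM, whereas the small ratios of Col5a2 and Col2a1 turned sign, to -0.085 and 0.10. Col10a1, the collagen of hypertrophic cartilage, went from 2 to 36 allele-assigned reads.

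The same comparison with Xist1lox/+ gave 0 of 17 collagens at least 2-fold higher and 0 lower, where 0.445% of all genes tested were higher and 0.375% lower. The ratios lay between -0.51 for Col5a2 and 0.34 for Col18a1. Type VI genes were at 0.11 (Col6a1), 0.27 (Col6a2) and 0.18 (Col6a3), type I at -0.15 (Col1a1) and -0.069 (Col1a2), and type IV at 0.012 (Col4a1) and -0.36 (Col4a2). Class medians were 0.18 for type VI, -0.11 for fibrillar, -0.12 for basement membrane and 0.092 for fibril-associated genes, beside 0.0040 for all genes. The 11 genes that differed past 2-fold with XistdeltaA/+ did not do so here. The difference between both pairs could not be tested with 1 library in each group.

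**Figure D2:**
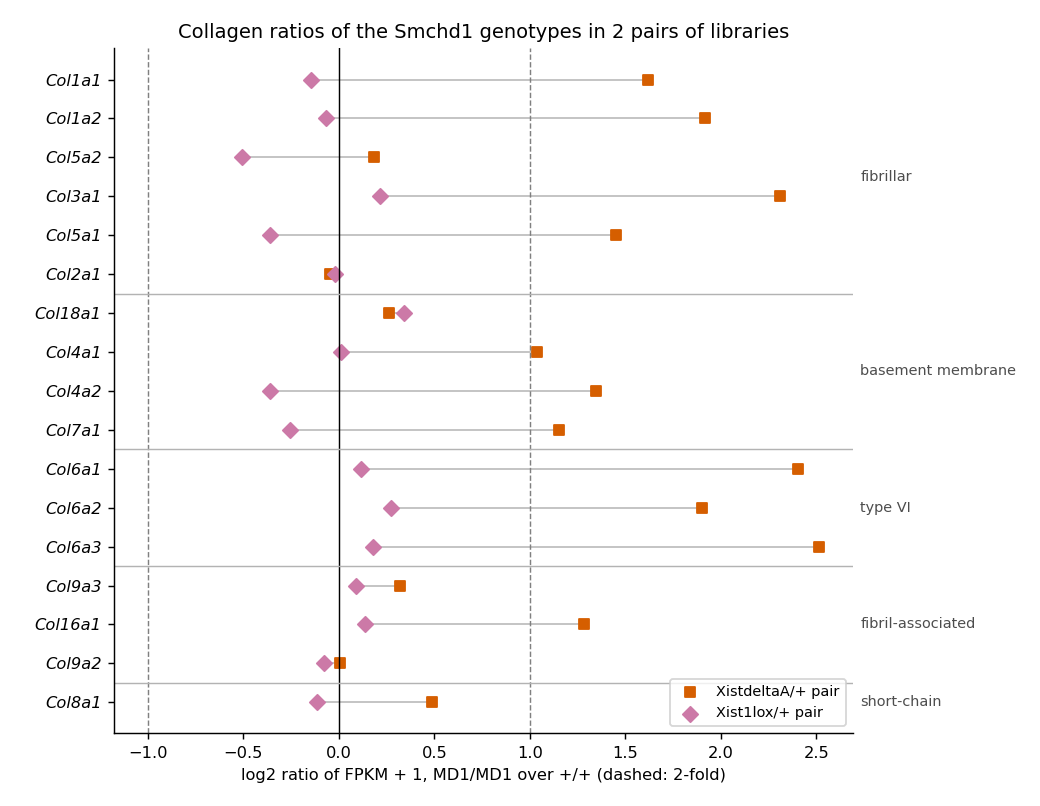
Log2 ratio of FPKM + 1, MD1/MD1 over +/+, for the 17 collagens in the XistdeltaA/+ pair (squares) and the Xist1lox/+ pair (diamonds), with dashed lines at 2-fold. In the XistdeltaA/+ pair 11 genes lie past 2-fold, up to 2.51 for Col6a3, and in the Xist1lox/+ pair all 17 lie between -0.51 and 0.34.

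A fit of both factors over all 4 libraries called no collagen. Its residual is the difference between the XistdeltaA/+ and Xist1lox/+ pairs, which raises the SE of genes that differ in only 1 pair. The lack of calls therefore says little of the XistdeltaA/+ pair by itself. With limma and Benjamini-Hochberg adjustment over 11471 genes, 0 of 17 collagens passed for Smchd1 genotype, where 0.0349% of genes did, and 2 (Col3a1 and Col6a2) had an unadjusted p under 0.05. The smallest adjusted p from limma was 0.937. For Col6a3 the fitted log2 difference was 1.35 (SE 0.55), for Col3a1 1.26 (SE 0.49) and for Col4a1 0.52 (SE 0.28). Of all genes 374 had an unadjusted p under 0.05 in limma. edgeR on allele-assigned reads called 0 of 29 collagens (0 with an unadjusted p under 0.05), where it called 5 of 11617 genes (0.043%) and 304 had an unadjusted p under 0.05. DESeq2 tested 36 collagens, of which 3 had an unadjusted p under 0.05, and called 0 of the 29 with an adjusted p. It called 22 of 11468 genes (0.192%), and 313 had an unadjusted p under 0.05.

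For the Xist mutation the same fit called 0 of 17 collagens, and 0.0% of all genes, with 0 collagens and 368 genes in all at an unadjusted p under 0.05. edgeR called 0 collagens and 0.0% of all genes, with 0 collagens and 325 genes at an unadjusted p under 0.05. DESeq2 called 0 of 36 collagens and 0.0326% of all genes, with 1 collagen and 223 genes at an unadjusted p under 0.05. This count rested on both XistdeltaA/+ libraries. Without +/+ XistdeltaA/+ and with the Xist mutation as the only term, 8 collagens were called lower in Xist1lox/+ (Col1a1, Col1a2, Col3a1, Col4a1, Col4a2, Col6a1, Col6a2 and Col6a3) and 0 higher, where 270 of 11471 genes (2.35%) were called lower and 52 higher. Without MD1/MD1 XistdeltaA/+, 5 were called higher (Col1a2, Col3a1, Col6a1, Col6a2 and Col6a3) and 0 lower, so the direction turned, where 513 of all genes (4.47%) were called higher and 378 lower. These fits leave 1 library in the XistdeltaA/+ arm, which is assumed to vary like the others. Their only spread is that between the Smchd1 genotypes within Xist1lox/+, so the calls restate how far that 1 library lies from the Xist1lox/+ pair. Its Smchd1 genotype is also not fully separated from the Xist mutation. By size alone, Xist1lox/+ against XistdeltaA/+ in +/+ gave 0 collagens past 2-fold higher (1.73% of all genes), with Col6a1 nearest at 0.99, and 0 lower (1.4%). The count higher rests on the scale, since it was 3 with a pseudocount of 0.1 in place of 1 and 4 of 25 with allele-assigned reads. In MD1/MD1 it gave 8 of 17 lower by at least 2-fold (2.17% of all genes) and 0 higher (0.323%), with ratios down to -1.64 for Col4a2. These ratios share their libraries with the Smchd1 comparisons above.

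Markers of other cell types differed between the same libraries. The list of fibroblast genes without collagens had 14 members in the table, with FPKM summing to 127, 379, 232 and 207, and 0 members at 0 in any library. In the XistdeltaA/+ pair 5 of its 10 members with a mean of at least 1 FPKM were past 2-fold with MD1/MD1 higher, and 0 were in the Xist1lox/+ pair (3.91% and 0.445% of all genes). These were Mgp (11.97, 153, 27.7 and 37.2 FPKM), Lum (0.431, 4.77, 1.13 and 1.68), Prrx1 (0.340, 3.03, 0.651 and 0.991), Pdgfra (0.5003, 2.40, 0.593 and 0.521) and Acta2 (6.10, 14.3, 9.68 and 6.71). Prrx1 and Pdgfra reach a mean of 1 FPKM only through MD1/MD1 XistdeltaA/+. With the filter on the mean of the other 3 libraries, a choice made after values were seen, 3 of 8 fibroblast genes, 11 of 17 collagens and 3.25% of all genes were past 2-fold. Tagln and Thy1, among the 3 highest by mean, were at log2 ratios of 0.97 and 0.70. Macrophage genes went further, with sums over 10 members of 22.6, 944, 333 and 304. Of their 9 members with a mean of at least 1 FPKM, 8 were at least 2-fold higher in the XistdeltaA/+ pair, also with the filter on the other 3 libraries, and C1qa, C1qb, Tyrobp and Emr1 were listed at 0 in +/+ XistdeltaA/+. Lyz2, the lysozyme of macrophages, was at 0.384, 799, 274 and 247 FPKM. Fcer1g (0.277, 13.7, 4.87 and 5.56), Laptm5 (0.0460, 12.6, 3.50 and 3.43) and Csf1r, the receptor for macrophage growth factor (0.233, 4.72, 1.51 and 1.31), had the same order of the XistdeltaA/+ pair. Cd68 (21.7, 34.6, 19.3 and 18.1) was the member under 2-fold, and it was near-equal in the other 3 libraries. Both sums were highest in MD1/MD1 XistdeltaA/+ and lowest in +/+ XistdeltaA/+, as type I, III and VI collagens were. In MD1/MD1 XistdeltaA/+, Mgp and Tagln made up most of the fibroblast sum and Lyz2 most of the macrophage sum. By gene, 5 of the 10 fibroblast and 8 of the 9 macrophage members with a mean of at least 1 FPKM had that order. Among the fibroblast genes without it, Postn was highest in +/+ XistdeltaA/+ and Dcn lowest in +/+ Xist1lox/+. Their log2 ratios in the XistdeltaA/+ pair were -0.25 and 0.21. Of the 10 epiblast genes, Sox2 (30.5, 92.8, 91.4 and 65.9) and Dnmt3b (144, 320, 242 and 268) were past 2-fold with MD1/MD1 higher in the XistdeltaA/+ pair, and +/+ XistdeltaA/+ was their lowest library. The part of these markers in the collagen differences was not tested.

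Markers of 4 more cell types were measured. Of the extraembryonic endoderm list, a cell type rich in type IV collagen, the defining regulators Gata4, Gata6, Sox7 and Sox17 were at most 0.392 FPKM in any library and Ttr was listed at 0 in all. The sum of its 9 members was 10.4, 16.8, 9.35 and 9.82, with Thbd, which other cells also make, the 1 member past 2-fold (0.230, 6.85, 1.12 and 1.23), although its mean too reaches 1 FPKM only through MD1/MD1 XistdeltaA/+. Dab2 (7.60, 8.08, 5.72 and 6.199) and Pth1r (2.24, 1.27, 1.91 and 1.97) were the other members of that list with a mean of at least 1 FPKM. Endothelial genes summed to at most 0.554 FPKM over 5 members, with Emcn and Tie1 listed at 0 in all libraries and Tek, Cdh5 and Pecam1 at most 0.313. Of 5 cartilage genes only Sox9 (5.90, 5.79, 7.01 and 6.32) had a mean of at least 1 FPKM, and Comp (0.340, 1.19, 0.422 and 0.396) and Acan (0.109, 0.444, 0.369 and 0.220) followed. Of 5 muscle genes Cnn1 (18.4, 36.4, 26.9 and 26.5) and Des (3.02, 2.68, 3.41 and 2.12) did, with Myod1 at most 0.358 and Myog listed at 0 in all libraries. Cnn1 was highest in MD1/MD1 XistdeltaA/+ and lowest in +/+ XistdeltaA/+. The part of these genes in the collagen differences was not tested.

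Paternal shares of reads separated the collagens further. Each share was set beside the median share of the other genes in the same 10 Mb window of the same library, counting genes with at least 20 allele-assigned reads. A median of 35 to 65% was taken as a window with both alleles, and one under 5% as a window of the maternal type alone. The 95% intervals are by the exact Clopper-Pearson method. They and the limits for 0 reads hold counting error alone, because reads without molecular identifiers are not independent molecules.

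The basement membrane genes mostly followed their windows. Col18a1 had paternal shares of 0.125% (0.050 to 0.257), 1.04% (0.810 to 1.31), 0.490% (0.314 to 0.728) and 46.1% (44.8 to 47.5), on 4897 to 6742 reads. Its window medians were 0%, 0.0918%, 0% and 48.5%, close to its own share in each library. Col4a1 was at 41.2% (37.9 to 44.6), 40.1% (37.9 to 42.2), 0.124% and 46.3% (42.8 to 49.9), beside 49.4%, 46.3%, 0% and 47.4%. Col4a2 was somewhat lower, at 37.4%, 32.6% (30.2 to 35.1), 0 paternal of 489 reads, which allows a share of up to 0.613%, and 38.3%. Col7a1 was at 44.4% (40.0 to 48.9) in MD1/MD1 XistdeltaA/+, where its window median was 46.7%, and at 0% to 0.442% in the other libraries, where the median was 0%.

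Type I and type III collagen lay far below their windows in the libraries where both alleles could be told. Col1a2 was at 4.85% (2.61 to 8.15), 1.99% (1.26 to 2.97), 7.56% (5.35 to 10.3) and 1.69% (0.735 to 3.31), on 268 to 1157 reads, with window medians between 45.4% and 51.8%. Col3a1 was at 7.80% (4.61 to 12.2), 10.01% (8.51 to 11.7), 12.8% (9.78 to 16.3) and 13.8% (10.9 to 17.2), with window medians between 46.8% and 51.6%. Most of their reads were thus of the maternal type in each of the 4 libraries, with a paternal share of at most 13.8%. Col1a1, on only 44 to 145 reads, was at 27.3% (14.96 to 42.8), 16.6% (10.9 to 23.6) and 8.77% (2.91 to 19.3) where its window held both alleles. In +/+ Xist1lox/+, where the window of Col1a1 was of the maternal type, 5.66% (1.18 to 15.7) of its 53 reads were paternal.

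Col5a2, whose gene ends 24624 bases from that of Col3a1 with no listed gene between, went the opposite way. Its shares were 76.5% (72.5 to 80.1), 63.8% (59.4 to 68.1), 71.7% (68.4 to 74.8) and 80% (75.9 to 83.7), on 435 to 792 reads. In the same window and the same libraries, Col3a1 was therefore read mostly from the maternal and Col5a2 mostly from the paternal type. The lowest share of Col5a2 was in MD1/MD1 XistdeltaA/+. Its partner chain Col5a1 was between both, at 36.4% (31.6 to 41.4), 23.7% (21.5 to 25.9), 25.4% (22.3 to 28.6) and 22.3% (18.9 to 26.1), with window medians of 47.5% to 49.4%. Col2a1 was at 31.5%, 39.2%, 28.6% and 40.9%, on 171 to 265 reads.

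Type VI collagen departed from its windows in both directions. Col6a3 had 4.69% (1.74 to 9.92), 0.0749% (0.0019 to 0.416) and 0% of reads paternal in the 3 libraries where its window median was between 47.2% and 50.5%, the last being 0 of 349 reads, which allows up to 0.860%. Col6a1 had paternal reads where its window was of the maternal type. Its shares there were 7.78% (4.32 to 12.7), 20.2% (18.0 to 22.5) and 15.9% (12.6 to 19.6), beside window medians of 0%, 0.0918% and 0%. Col6a2, 85387 bases away, was at 0%, 0.722% and 1.05%, on 43, 277 and 95 reads. The interval of its 0 of 43 reads goes up to 8.22% and overlaps that of Col6a1. In MD1/MD1 Xist1lox/+, where the window of these 2 genes held both alleles at a median of 48.5%, Col6a1 was at 22.3% (18.6 to 26.4) and Col6a2 at 12.1% (6.76 to 19.4), both below it. Col6a1 thus had a share of 15.9% to 22.3% in 3 libraries whether or not its window held a paternal copy that could be told from the maternal one. In +/+ XistdeltaA/+, also with a maternal-type window, it was 7.78%.

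Of genes with at least 20 reads in a maternal-type window, 1 of 5, 1 of 5, 2 of 8 and 1 of 3 collagens had a share of 5% or more, in the order of libraries given above. Among all autosomal genes 2.65%, 9.51%, 3.33% and 4.35% did. The cases were Col6a1 in 3 libraries, Col1a1 in +/+ Xist1lox/+ and Col11a2 in MD1/MD1 Xist1lox/+. Col11a2 (chromosome 17, 34176382 to 34203187), a chain of the type XI collagen of cartilage, was at 41.9% and 46.7% in the +/+ libraries, beside 50.6% and 49.4% for its window. In the MD1/MD1 libraries, whose window medians were 0.466% and 0.134%, it was at 0.862% (0.022 to 4.71) and 7.89% (1.66 to 21.4) of 116 and 38 reads. Its FPKM was 0.504, 1.23, 0.475 and 0.449, so the Xist1lox/+ pair had near-equal levels with and without a paternal copy that could be told.

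**Figure D3:**
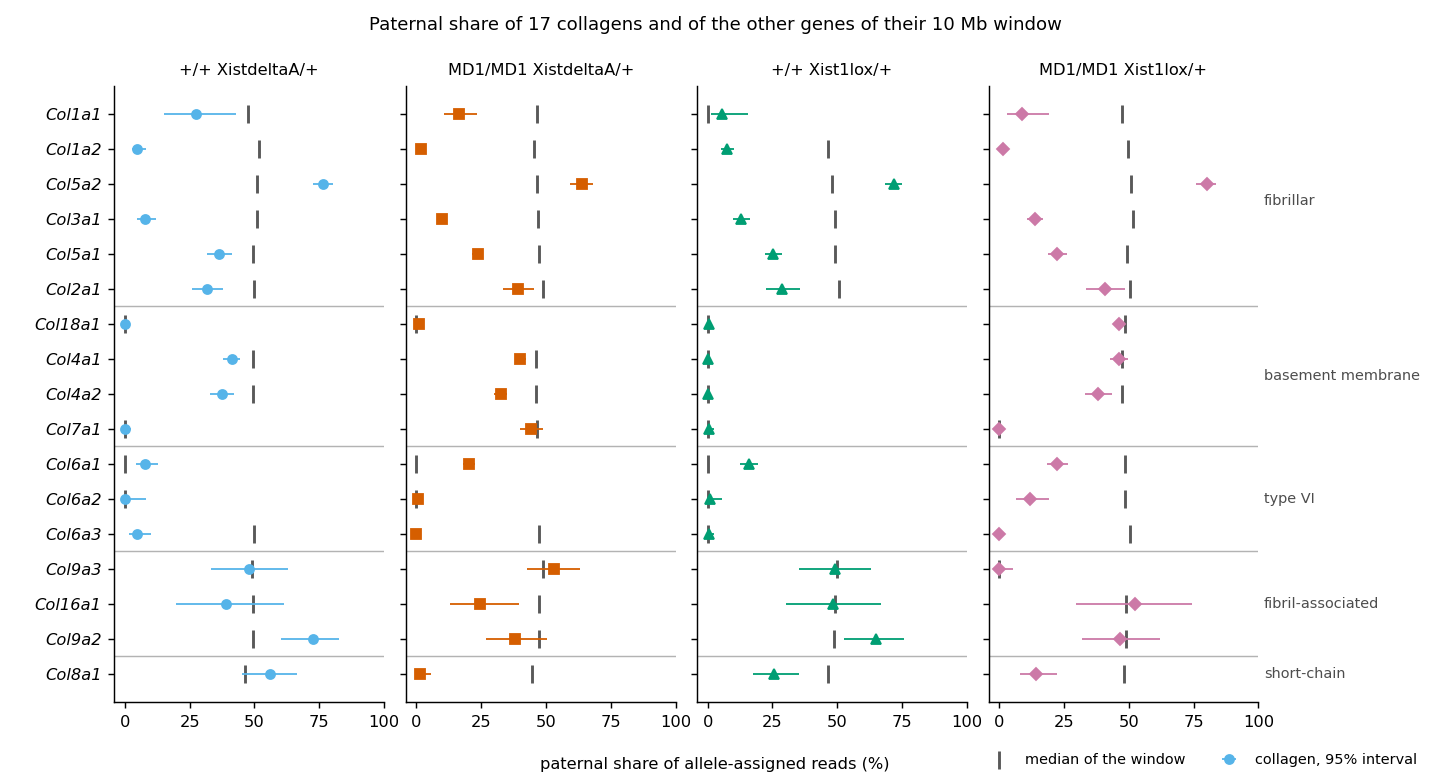
Paternal share of allele-assigned reads in percent for the 17 collagens with a mean of at least 1 FPKM (points, with exact 95% intervals) and the median share of the other genes of the same 10 Mb window (grey bars), in each of the 4 libraries, for collagens with at least 20 reads. Col18a1 and Col7a1 sit close to their window's median, Col1a2, Col3a1 and Col6a3 lie far below it where it is between 45.4% and 51.8%, and Col5a2 lies above it at 63.8% to 80%.

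Counted by a fixed size, a share at least 15 points below the window median was seen for 8 of 19 collagens in +/+ XistdeltaA/+ (8.85% of all autosomal genes) and 11 of 22 in MD1/MD1 XistdeltaA/+ (12.9%). With Xist1lox/+ it was seen for 8 of 17 in the +/+ (9.85%) and 12 of 21 in the MD1/MD1 library (10.5%). At least 15 points above it were 2, 3, 3 and 1 collagens (6.32%, 5.75%, 6.13% and 5.66% of all autosomal genes). Of the fibrillar class 5 of 9, 6 of 9, 6 of 9 and 5 of 8 were below, and of the basement membrane class 1 of 3, 1 of 4, 0 of 0 and 1 of 4, in each case Col15a1 on 22 to 49 reads. No network chain of type IV and neither Col18a1 nor Col7a1 was among them. In windows with both alleles in all 4 libraries there were 11 collagens. Col1a2, Col3a1, Col5a3 and Col12a1 were below in all 4, where 3.92% of 5377 genes were, and Col5a2 was above in all 4, where 1.82% were. Col5a3, the third chain of type V, was at 10.2%, 11.4%, 17.7% and 10%, on 49 to 184 reads. Col12a1, which coats type I fibrils, was at 20.3%, 17.9%, 20.3% and 10.6%, on 59 to 229 reads. Col8a1 moved most between libraries, at 55.9% (45.2 to 66.2), 1.61% (0.196 to 5.70), 25.7% (17.6 to 35.4) and 14.2% (8.14 to 22.3), while its window medians stayed between 44.7% and 48.3%.

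The reads of each allele were then set side by side within the XistdeltaA/+ pair, for the 13 of 17 collagens whose window held both alleles in both libraries. Maternal RPM was at least 2-fold higher in MD1/MD1 for 10 of them and paternal reads for 5, where 6.83% and 3.74% of all such genes were. Col1a2 had 32.6 maternal RPM (28.7 to 36.8) in +/+ and 142 (133 to 150) in MD1/MD1, 4.35-fold more, beside 1.66 (0.884 to 2.84) and 2.87 (1.82 to 4.31) paternal. Col6a3 had 15.6 (12.9 to 18.6) and 167 (158 to 176) maternal RPM, 10.7-fold more, while its paternal reads numbered 6 and 1. For these 2 genes the higher count of MD1/MD1 lay almost wholly in maternal-type reads.

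In type IV collagen both alleles were higher. Col4a1 had 65.3 (59.8 to 71.2) and 154 (145 to 163) maternal RPM, 2.36-fold more, and 45.7 (41.1 to 50.7) and 103 (96.0 to 110) paternal, 2.25-fold more. Col4a2 was 3.54-fold higher in maternal and 2.86-fold higher in paternal reads. The folds of both alleles were thus nearly equal for Col4a1, while for Col4a2 the maternal fold was the larger. Unlike Col1a2 and Col6a3, with their maternal-type excess, this pair was past 2-fold on both alleles. Col3a1 was also higher on both, 6.29-fold and 8.28-fold, from a paternal base of 17 reads, and Col5a1 4.58-fold and 2.47-fold. Col8a1 had 52 paternal reads in +/+ and 2 in MD1/MD1, and 41 and 122 maternal ones. Col5a2 was 1.45-fold higher in maternal and 0.787-fold in paternal reads. In the Xist1lox/+ pair 8 of the 17 collagens could be compared, and 0 were 2-fold higher on either allele, where 1.33% and 1.19% of all genes were. Lower by as much in MD1/MD1 were Col1a2 in paternal reads (36 and 8, 0.238-fold) and Col5a2 in maternal reads (224 and 87, 0.416-fold). The share of all genes lower by as much was not counted.

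**Figure D4:**
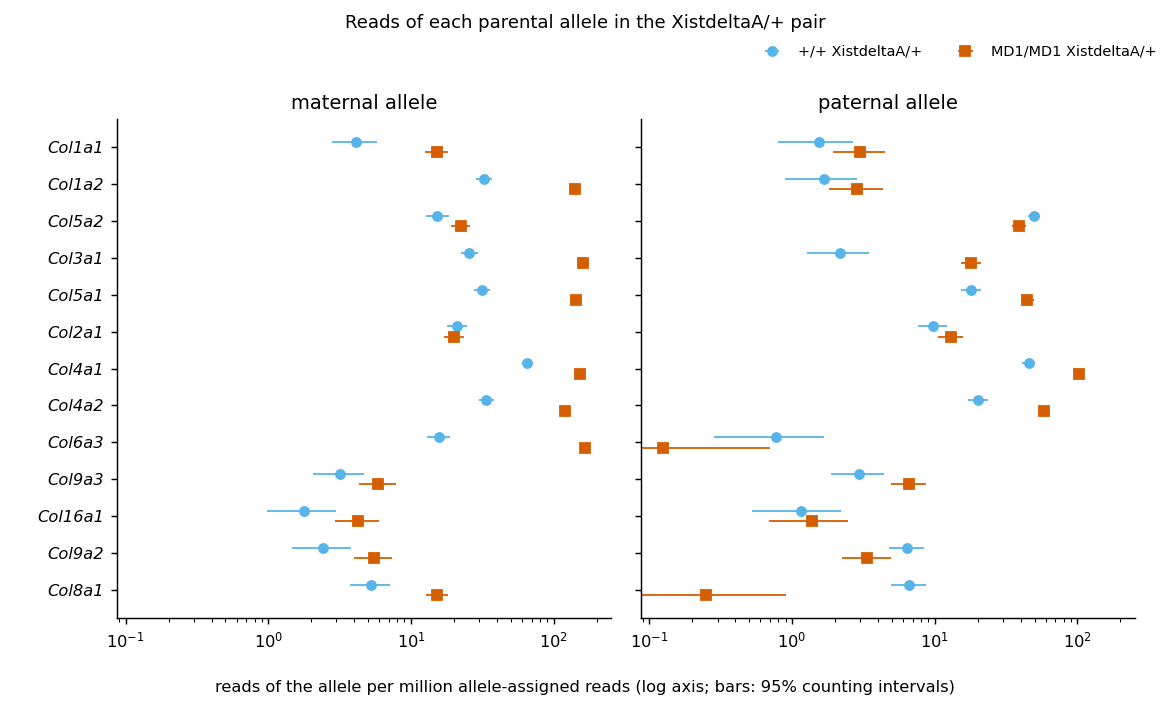
Maternal (left) and paternal (right) reads in RPM, on log axes with 95% counting intervals, in +/+ (circles) and MD1/MD1 (squares) XistdeltaA/+, for the 13 collagens in windows with both alleles in both libraries. Col4a1 and Col4a2 are more than 2-fold higher on both alleles, whereas Col1a2 and Col6a3 are 4.35-fold and 10.7-fold higher on the maternal allele.

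The same measure was taken on the marker lists. Of macrophage genes in windows with both alleles, 0 of 1, 4 of 5, 3 of 4 and 5 of 5 had a share at least 15 points below the window, where 8.85%, 12.9%, 9.85% and 10.5% of all autosomal genes had. Lyz2 was at 0.0265% beside 45.4% in MD1/MD1 XistdeltaA/+. Of fibroblast genes without collagens 1 of 6, 4 of 7, 2 of 7 and 4 of 8 were below. Pdgfra went from 51.4% in +/+ XistdeltaA/+ to 3.68%, 5.75% and 17.5% in the others, and Prrx1 was at 20.6%, 3.21% and 1.87% where its window held both alleles. Thy1, by contrast, lay between 32.4% and 37.5%. Of epiblast genes 1 of 7, 1 of 8, 0 of 6 and 0 of 6 were below. These epiblast counts are near the shares of all genes. Low paternal shares were thus seen in the macrophage and part of the fibroblast list as in type I and III collagen and Col6a3. The window of Col6a1 and Col6a2 held both alleles in MD1/MD1 Xist1lox/+ alone, where both genes were below it. The part of the marker lists in the collagen shares was not tested.

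Enzymes that modify and process collagen did not move as one. Of 30 listed, 23 had a mean of at least 1 FPKM, and in the XistdeltaA/+ pair 5 were at least 2-fold higher and 2 lower in MD1/MD1 (3.91% and 1.82% of all genes), with a median log2 ratio of 0.12. Higher were Pcolce, which enhances the cutting of procollagen (10.7, 35.996, 21.8 and 17.2 FPKM), Tgm2, a crosslinking enzyme (1.20, 6.22, 1.85 and 1.59), Fkbp14, which reaches a mean of 1 FPKM only through MD1/MD1 XistdeltaA/+ (0.651, 3.14, 1.26 and 0.962), Loxl3 (2.28, 6.23, 3.79 and 3.59) and Fn1, the fibronectin on which fibrils assemble (36.9, 97.1, 38.6 and 37.7). Lower were Plod2, a lysyl hydroxylase (247, 36.2, 258 and 192 FPKM), and P4ha1, a prolyl hydroxylase subunit (39.6, 17.2, 25.6 and 21.8). The enzymes that every collagen-making cell uses at a high level, P4hb and Ppib, had log2 ratios of -0.063 and -0.25. In the Xist1lox/+ pair 0 were past 2-fold either way, and 0 of the list passed limma for Smchd1 genotype or Xist mutation.

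Partners of basement membrane collagen held 1 gene past 2-fold. Of 20 listed, 15 had a mean of at least 1 FPKM, and 1 was at least 2-fold higher in MD1/MD1 XistdeltaA/+ with 0 lower, beside 3.91% and 1.82% of all genes, so nothing is read from the count. The gene was Nid1, nidogen, which links laminin to type IV collagen, at 3.43, 18.8, 3.22 and 3.24 FPKM. Its relative Nid2 was at 80.7, 57.1, 56.1 and 56.6, Sparc, which binds collagen, at 127, 146, 154 and 124, and the receptor subunit Itgb1 at 99.7, 93.3, 79.4 and 74.1. The median log2 ratio of the list was 0.20 with XistdeltaA/+ and -0.035 with Xist1lox/+, and 0 members passed limma. Nid1 and the type IV pair were thus both highest in MD1/MD1 XistdeltaA/+ and near-equal in the other 3 libraries.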

How the data were processed

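Total RNA of EpiSCs went into libraries made with a stranded mRNA kit, per the labels' protocols. Build mm9, Cufflinks 2.2.1 and Cuffdiff are named in the submitters' processing notes without saying what each did. For the aligner, strain variants and annotation, nothing is given in the sources used here. The authors deposited, per gene, a count of allele-assigned reads, the fraction of these with the paternal allele, and FPKM. Fraction times count gave whole numbers for 100% of values (tolerance 1e-06). Another 6 columns match none of the samples and stayed unused. Starts count from 0 in the table, as checked with 1097 olfactory receptor genes, of which 84.0% had a length divisible by 3 that way, and are printed counted from 1.

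Ratios were taken on log2(FPKM + 1), where the mean over libraries reached 1 FPKM. The limma 3.58.1 model (trend on) held both factors, Smchd1 genotype and Xist mutation, and left 1 residual degree of freedom. That residual is the difference between the XistdeltaA/+ and Xist1lox/+ pairs and not a spread between replicates, so p-values do not measure the latter. edgeR 4.0.16 and DESeq2 1.42.0 on allele-assigned reads were alternatives. Windows needed at least 5 other genes and counted as holding both alleles at a median share of 35 to 65%, and as maternal-type under 5%. Collagens with a mean FPKM of at least 1 were named with all values, and of each other list the 3 highest by mean and those past 2-fold with XistdeltaA/+. Some further list members were named, among them those that departed from the rest of their list. The 5% count in maternal-type windows and the comparison of alleles with all genes were added after values were seen. Fits and the window step were tested on simulated data. Members and lists were chosen with earlier results of these data known.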

Additional observations from a re-analysis of the deposited data

Results flagged for a closer look

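For 5 collagens the log2 FPKM ratio of MD1/MD1 over +/+ was past 2-fold with XistdeltaA/+ and of the opposite sign with Xist1lox/+. It was 1.92 and -0.069 for Col1a2, 1.62 and -0.15 for Col1a1, 1.45 and -0.36 for Col5a1, 1.35 and -0.36 for Col4a2, and 1.15 and -0.25 for Col7a1. By allele-assigned reads the Xist1lox/+ ratios of Col1a2 and Col1a1 turned sign, to 0.087 and 0.20. Those of Col5a1, Col4a2 and Col7a1 stayed negative. With 1 library in each group the difference between both pairs was not tested.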

How the results depend on the processing

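Of the alternative values 149 equalled the reported one or kept its direction within 1.5 times of it, 21 moved further and 4 reversed. Many of the 149 were counts of 0 that stayed at 0, which have no direction. The filter on the other 3 libraries, chosen after seeing the data, left 11 collagens higher and 0 lower. With a fold of 3, 6 collagens were higher in MD1/MD1 XistdeltaA/+ (11 at 2-fold) and 1 was lower in Xist1lox/+ than in XistdeltaA/+ within MD1/MD1 (8 at 2-fold). The latter count was 16 of 25 with allele-assigned reads. Xist1lox/+ over XistdeltaA/+ in +/+, with 0 collagens past 2-fold, gave 3 with a pseudocount of 0.1, 1 when centred on the median gene, 1 with quantile normalization, 4 with allele-assigned reads and 7 at a fold of 1.5. With XistdeltaA/+ the fibrillar median was 0.76 with a filter of 0.1 FPKM and the fibril-associated median 0.92 with allele-assigned reads. With Xist1lox/+ the basement membrane median turned to 0.012 with a filter of 0.1 FPKM and to 0.045 with allele-assigned reads, the fibril-associated median turned to -0.00099 and -0.31, and the type VI median was 0.28 with allele-assigned reads. The cause of these shifts was not tested.

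Paternal shares below the window numbered 5 in +/+ XistdeltaA/+ with at least 50 reads and 4 in +/+ Xist1lox/+ at 25 points. Shares above it numbered 1 in +/+ XistdeltaA/+ with 5 Mb windows and 1 at 25 points, 1 in MD1/MD1 XistdeltaA/+ with at least 50 reads, 1 in +/+ Xist1lox/+ at 25 points, and 0 with 5 Mb windows and 3 with at least 10 reads in MD1/MD1 Xist1lox/+. Leaving out 1 library at a time, limma called 0 to 0 collagens for Smchd1 genotype and 0 to 8 for the Xist mutation. No paired analysis was possible because each combined genotype has 1 library and the labels give no replicate numbers. Depth limits Col1a1, Col8a1, Col9a2, Col9a3, Col15a1 and Col16a1, with under 150 allele-assigned reads a library. The same holds for Col8a2, Col10a1, Col11a1, Col11a2, Col22a1, Col23a1 and Col27a1, and for the 15 collagens under 0.2 FPKM in every library. Col5a3, Col6a2 and Col12a1 were above 150 reads in MD1/MD1 XistdeltaA/+ alone.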

Other observations

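Col4a5 and Col4a6, the X-linked type IV genes outside the rule, were low. Col4a5 was at 0.474, 1.55, 0.569 and 0.471 FPKM, in the library order used above, and was thus highest in MD1/MD1 XistdeltaA/+, as Col4a1 and Col4a2 were. Col4a6 was at 0.246, 0.353, 0.264 and 0.186 FPKM, on 25 to 45 allele-assigned reads.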
